A study of Mus musculus with 10 samples.

Results

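The blood leukocyte transcriptome of mice after 48 h of SASD, a sleep restriction method described before this study, was compared with that of the control group (Con). The comparison used 2 of the 10 libraries, SASD 48 h and Con, identified by their labels. The pair was taken with its low haemoglobin shares already known. Each was a single library from the pooled blood RNA of 3 C57/BL6J mice. The mice of both groups were anesthetized with pentobarbital at 80 mg/kg and bled behind the eye (500 µL, EDTA tubes), and no mutant allele or other agent is named in the labels. Con is labelled 0 h and SASD 48 h is labelled 48 h, so the nominal times differ by a whole number of days. Neither the clock time of bleeding nor the SASD procedure, nor the sex and age of the mice, is given in the sources used here. The remaining libraries followed sleep deprivation (SD) for 6, 12, 24 and 48 h and SASD for 6, 12, 24 and 120 h, again with 1 pool each.

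Monocytes circulate as classical cells, which carry Ly6C and the chemokine receptor CCR2 and enter inflamed tissue, and as nonclassical cells, which carry CX3CR1 and patrol the vessel wall. Both express Fc gamma receptors, which bind the constant part of IgG: an activating receptor passes its signal through the FcR gamma chain and the kinase Syk, while the inhibitory receptor Fcgr2b recruits phosphatases. Type I interferon acts through IFNAR, JAK kinases and transcription factors that include IRF9 to switch on antiviral genes, and IFN-gamma acts through a receptor of its own. Monocytes respond to both.

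With 1 library a side there was no replicate check and no test. Ratios are SASD 48 h over Con after TMM scaling of the counts. TMM sets a trimmed mean of the gene log ratios level between the libraries, which need not level their median. The 95% counting interval given with a ratio covers counting error only, not differences between mice, pools or library preparations. Genes were called well counted where the pair averaged 100 or more counts, so a gene could pass through its higher library alone. That left 10932 genes. Their median log2 ratio was 0.12 and their 5th and 95th percentiles were -0.48 and 0.58, so lists are read against 0.12 and not against 0.

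Among the well counted genes, 199 (1.82%) were at least 2-fold higher in SASD 48 h and 143 (1.31%) at least 2-fold lower. At 1.5-fold the numbers were 543 higher (4.97%) and 429 lower (3.92%). The whole counting interval lay past 2-fold for 118 of the higher and 77 of the lower genes. The balance of higher to lower genes depended on the scaling: total counts gave 147 higher and 199 lower, and upper quartile scaling 130 and 214. These scalings moved the median log2 ratio of all well counted genes by -0.10 and -0.14. That brought it to 0.02 and -0.02, nearer level than the 0.12 of TMM. Monocyte and macrophage lists held 34 of the 199 higher genes and none of the 143 lower ones. Their well counted members were 16 classical, 24 nonclassical, 33 shared and 9 macrophage type genes. The lists were chosen with earlier results of these data known. Erythroid and platelet lists, with 14 and 16 well counted members, held none of the higher and 11 of the lower genes.

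**Figure D1:**
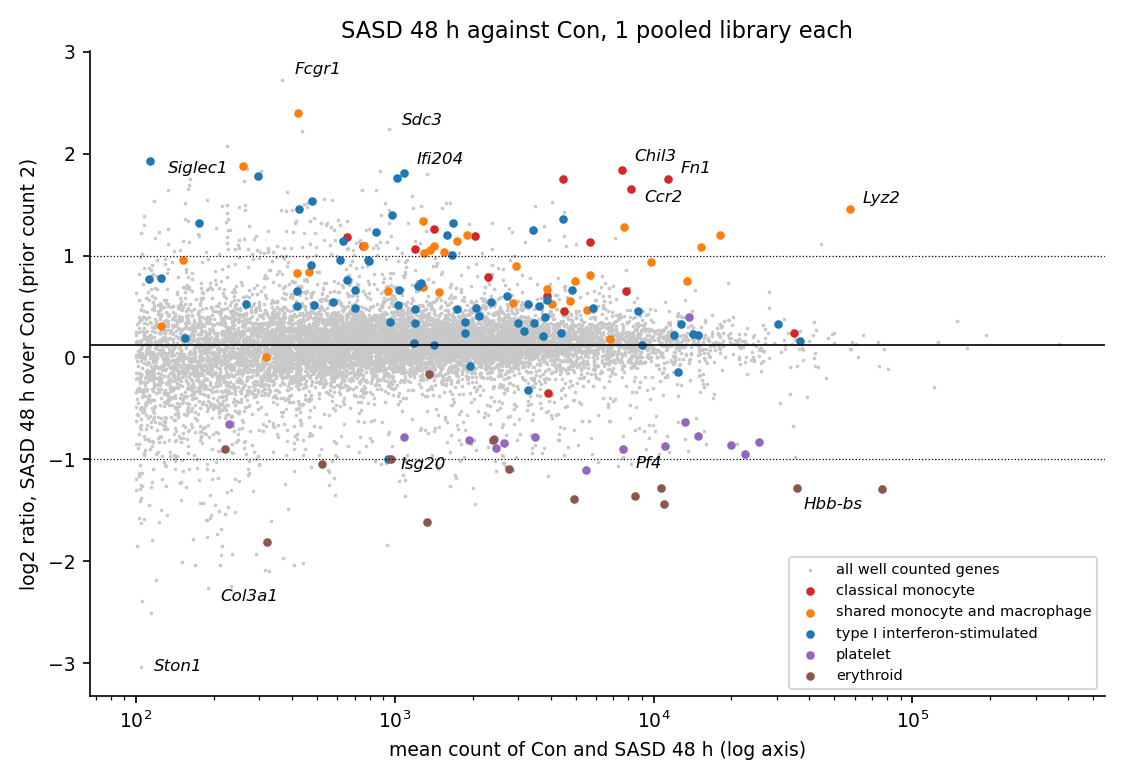
Log2 ratio of SASD 48 h over Con (vertical, prior count 2) against the mean count of the pair (horizontal, log axis) for 10932 well counted genes, 1 pooled library each. Classical monocyte genes and shared monocyte genes lie mostly above the solid line at the median of all genes (0.12), erythroid and platelet genes below it, and the dotted lines mark 2-fold.

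The 2 libraries were the deepest of the 10 (27501393 counts in Con, 24818986 in SASD 48 h, 7825120 to 13927134 in the others). Haemoglobin genes took 0.727% of the counts in Con (exact Clopper-Pearson 95% interval 0.724% to 0.730%) and 0.275% in SASD 48 h (0.272% to 0.277%). Mitochondrially encoded genes took 1.52% and 1.49%. Olfactory receptor genes, used here as a measure of background, stood at 0.0623 CPM per kb in Con and 0.0351 in SASD 48 h, a ratio of 0.563. Of the 143 lower genes, 14 were under 10 times that background in Con; none of the 199 higher genes was under 10 times it in SASD 48 h. Subtracting the olfactory background from each library left 144 genes 2-fold lower and 217 higher.

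Classical monocyte genes were higher in SASD 48 h. Of 16 listed genes, all well counted, 10 were at least 2-fold higher, 13 at least 1.5-fold higher and none 1.5-fold lower, with a median log2 ratio of 1.11. Chil3, a secreted chitinase-like protein of classical monocytes, had 3747 counts in Con and 11296 in SASD 48 h, a ratio of 3.59 (3.46 to 3.73). Ccr2, the receptor that draws these cells from marrow to tissue, went from 4513 to 11902 counts, 3.14-fold (3.04 to 3.25). Plac8 (3.37-fold, 3.21 to 3.53) and Fn1, fibronectin (3.36-fold, 3.26 to 3.46), were as far apart between the libraries. Ly6c2, part of the surface antigen that defines the classical subset, had 1400 and 2679 counts, 2.28-fold (2.14 to 2.44); its reads may be shared with close copies. Clec4a3, the proteoglycan Vcan and the matrix protein Tgfbi were 2.40-fold (2.21 to 2.59), 2.28-fold (2.03 to 2.56) and 2.19-fold (2.11 to 2.28) higher. The list was not uniform: the heparanase gene Hpse, picked out after its value was seen, stood at 0.783 (0.748 to 0.819). In bulk blood more cells of a type and more RNA per cell cannot be told apart.

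Genes shared by monocytes and macrophages moved with them: 14 of 33 well counted members (35 listed) were at least 2-fold higher, 26 at least 1.5-fold higher and none 1.5-fold lower, at a median of 0.90. Csf1r, the receptor for the growth factor on which monocytes depend, had 5050 and 10331 counts, 2.44-fold (2.36 to 2.52). Lyz2, lysozyme, was the most abundant member, with 34714 and 79828 counts and a ratio of 2.74 (2.71 to 2.78). The tetraspan gene Ms4a6d was 3.73-fold higher (3.04 to 4.59), the lysosomal protein Cd68 2.54-fold (2.34 to 2.76) and the pore-forming protein Mpeg1 2.31-fold (2.26 to 2.36). Lgals3, galectin-3, was 2.30-fold higher (2.15 to 2.46), and Tlr7, an endosomal sensor of single-stranded RNA, 2.21-fold (2.06 to 2.37).

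The nonclassical list was mixed. Of 24 members, all well counted, 6 were at least 2-fold higher and none 2-fold lower; 9 were at least 1.5-fold higher and 1 lower, at a median of 0.41. Cx3cr1, the fractalkine receptor, had 1915 counts in Con and 3781 in SASD 48 h, 2.35-fold (2.23 to 2.49). Nr4a1, the nuclear receptor needed to make nonclassical monocytes, had 1727 and 3035, 2.10-fold (1.97 to 2.22); it is also an immediate early gene. The lectin Clec4a1 (2.81-fold, 2.58 to 3.06), the adhesion receptor Adgre4 (2.50-fold, 2.35 to 2.66), the peptidase Ace (2.17-fold, 2.08 to 2.26) and the ribonuclease Ear2 (2.11-fold, 1.91 to 2.33) were the other 2-fold genes. Gngt2 and Treml4 were 1.86-fold (1.73 to 2.01) and 1.81-fold (1.67 to 1.97) higher. Picked out after their values were seen, Cd300e stood at 1.20 (1.07 to 1.35) and Spn, CD43, at 1.20 (1.16 to 1.23), close to the median of all genes, and Cd9 at 0.556 (0.545 to 0.568). Cd9 is also a platelet gene, and 15 of 16 platelet genes were at least 1.5-fold lower. The part of platelet RNA in the Cd9 ratio was not tested.

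Of 20 genes that mark macrophages, 9 were well counted and 4 of these at least 2-fold higher, but a member could pass that count on SASD 48 h alone. Siglec1, the sialic acid-binding receptor CD169 that interferon induces on monocytes, had 132 and 405 counts, 3.66-fold (3.00 to 4.49). Trem2 was 3.29-fold higher (2.56 to 4.27), Slamf8 2.30-fold (1.84 to 2.90) and Axl 2.12-fold (1.82 to 2.47). The members that were not well counted ran from lower to nearly level. Picked out after their values were seen, C1qa had 23 and 7 counts, Marco 44 and 11 and Cd5l 82 and 20, while Cd163 had 78 and 74 (1.13-fold, 0.811 to 1.57), Spic 88 and 86 (1.17-fold, 0.855 to 1.59) and Mertk 30 in each (1.19-fold, 0.694 to 2.05).

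**Figure D2:**
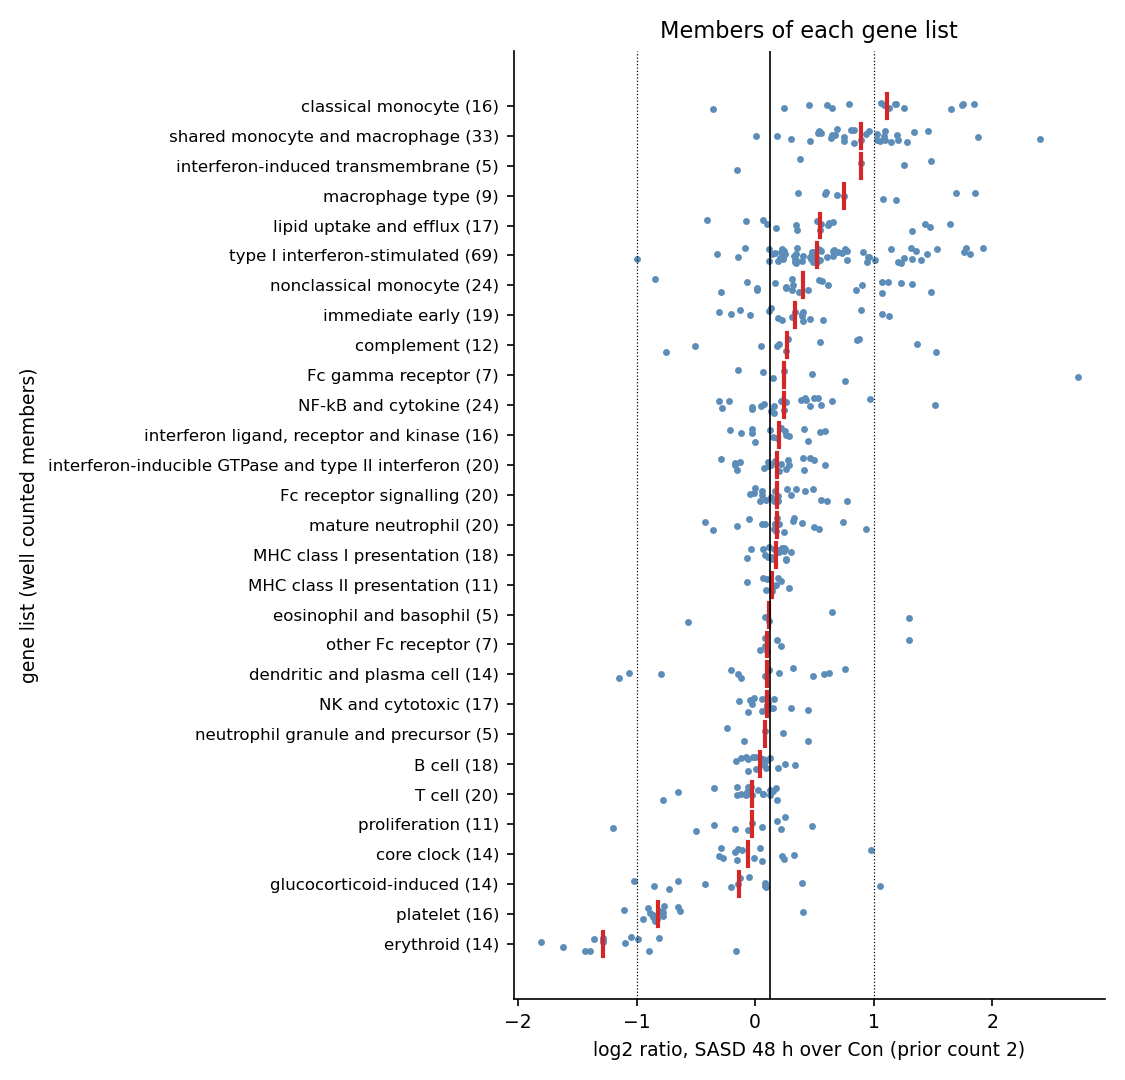
Log2 ratio of SASD 48 h over Con (horizontal, prior count 2) for the well counted members of each of 29 gene lists, with their number in brackets. Red bars mark list medians, the solid line the median of all well counted genes (0.12) and dotted lines 2-fold; classical monocyte genes have the highest median (1.11) and erythroid genes the lowest (-1.29).

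Of all well counted genes, Fcgr1 had the highest ratio. It encodes CD64, the high-affinity IgG receptor, which monocytes and macrophages carry and which IFN-gamma induces. The gene lies on chromosome 3 (chr3:96282909-96293969, minus strand, mm10). It had 111 counts in Con and 625 in SASD 48 h, a ratio of 6.71 (5.48 to 8.29). Its promoter is shown because it holds the gamma-activated site, a motif of the IFN-gamma response (GAS, searched as TTCNNNGAA, which reads the same on both strands). The RefSeq promoter window (GRCm38.p6, 250 bases before to 50 after the start) has 1 match, beginning 109 bases before the start and set in capitals in this stretch of chr3:96294030-96294109, minus strand:
Fcgr1: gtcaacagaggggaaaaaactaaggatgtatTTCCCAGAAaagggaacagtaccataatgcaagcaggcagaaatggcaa
GAS matches occurred in 8.30% of 32851 mouse promoters of this length and in 1 of the 8 promoters of the Fc gamma receptor list. A match describes these letters only.

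The other Fc gamma receptor genes stood closer to 1 than Fcgr1. Fcgr3, the low-affinity activating receptor CD16, had 1899 and 2688 counts, 1.69-fold (1.59 to 1.79). Fcer1g, the FcR gamma chain that Fcgr1, Fcgr3 and Fcgr4 need to signal, had 3173 and 3706 counts, 1.39-fold (1.33 to 1.46). Fcgr2b, the inhibitory receptor of B cells and myeloid cells, had 3727 and 3698 counts, 1.18-fold (1.13 to 1.24). Fcgr4, an activating receptor of nonclassical monocytes and neutrophils, had 886 and 778 counts, and its interval of 0.949 to 1.15 around 1.05 included no change. Receptors that act inside cells stood close by: the cytosolic antibody receptor Trim21 at 1.11 (1.03 to 1.19) and Fcgrt, the neonatal receptor that recycles IgG, at 0.906 (0.832 to 0.986). Over the 7 genes, 1 was at least 2-fold higher and 2 at least 1.5-fold higher, with a median log2 ratio of 0.24. The ratios thus ran from 0.906 to 6.71 within the list.

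Compared per kb of exon, Fcgr1 remained the least abundant of the 7 in both libraries, at 1.5 CPM per kb in Con and 10.1 in SASD 48 h. Fcer1g was the most abundant, at 127 and 177 CPM per kb, followed by Fcgr3 at 38.4 and 64.7. Fcgr4 and Fcgr2b lay close together, with 24.7 and 22.6 CPM per kb in Con and 25.9 and 26.7 in SASD 48 h. Exon lengths came from another annotation than the counts, so levels per kb are approximate.

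Among 11 other Fc receptor genes 7 were well counted. Ms4a2, the beta chain of the IgE receptor of basophils and mast cells, was 2.50-fold higher (1.87 to 3.39) on 69 and 145 counts. It passed the count minimum only through SASD 48 h. The B cell genes Fcer2a (CD23, 1.13-fold, 1.11 to 1.16), Fcmr (the IgM receptor, 1.07-fold, 1.05 to 1.10), Fcrl1 (1.03-fold, 0.985 to 1.07) and Fcrla (1.16-fold, 1.12 to 1.21) lay near the median of all genes. Of 20 genes that signal below Fc receptors, none reached 2-fold and 2 reached 1.5-fold higher: the Src-family kinase Fgr (1.72-fold, 1.64 to 1.79) and Tyrobp, the adaptor DAP12 (1.52-fold, 1.47 to 1.57). Syk itself, picked out after its value was seen, stood at 1.06 (1.05 to 1.08).

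**Figure D3:**
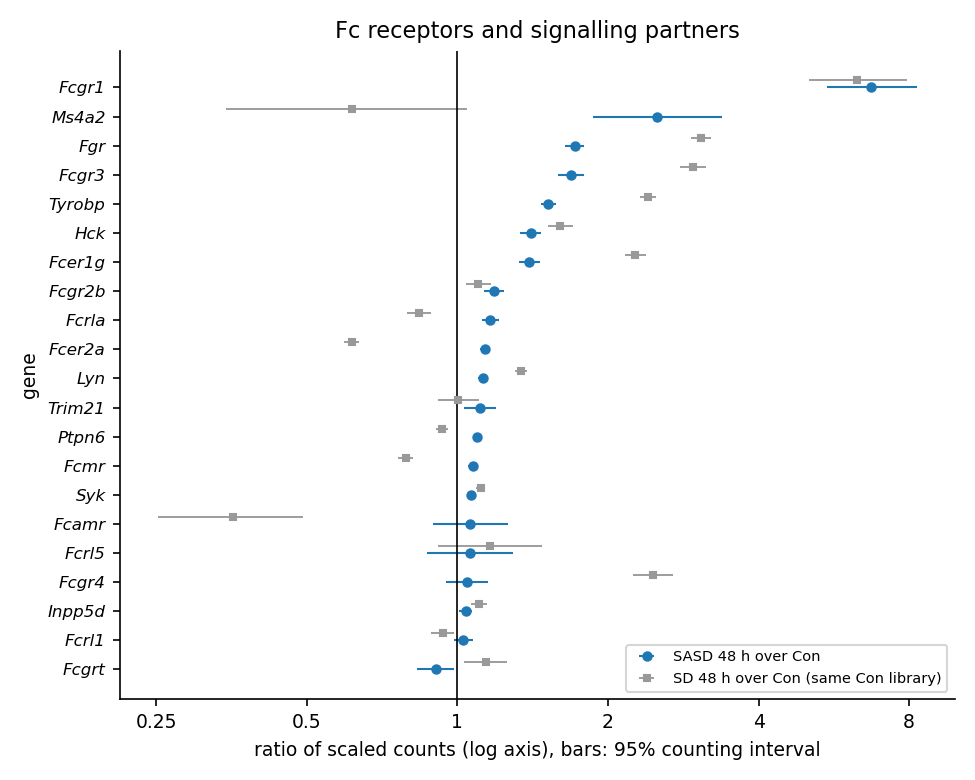
Ratio over Con (horizontal, log axis) with 95% counting intervals for Fc receptor genes and signalling partners, in SASD 48 h (blue circles) and SD 48 h (grey squares), which share the Con library. Fcgr1 stands at 6.71 in SASD 48 h and 6.30 in SD 48 h, while Fcgr4 stands at 1.05 and 2.46.

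SD 48 h, set against the same Con library, gave a different spread over the receptors. Its ratios were 6.30 (5.05 to 7.90) for Fcgr1, 2.96 (2.79 to 3.15) for Fcgr3, 2.27 (2.16 to 2.39) for Fcer1g and 2.46 (2.24 to 2.7) for Fcgr4. Fcgr1 thus stood at similar ratios in the 2 comparisons, on only 111 counts in Con and 296 in SD 48 h. Fcgr3, Fcer1g and Fcgr4 stood higher in SD 48 h than in SASD 48 h. Over all 7 genes of the list the median log2 ratio was 1.18 in SD 48 h and 0.24 in SASD 48 h. The intervals cover counting error only. Neutrophil genes, which share the low-affinity receptors, moved beside these values: the mature neutrophil list had a median of 2.43 in SD 48 h and 0.18 in SASD 48 h. Their part in the receptor values was not tested.

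Type I interferon-stimulated genes were higher as a list, by less than the classical monocyte genes. Of 73 genes 69 were well counted, 63 of them above the median of all genes; 15 were at least 2-fold higher and none 2-fold lower, and 29 were 1.5-fold higher against 1 lower. The median log2 ratio was 0.52. The highest were members of the Ifi200 family, sensors and regulators encoded side by side on chromosome 1. Ifi204 had 550 and 1628 counts, 3.53-fold (3.20 to 3.89), Ifi207 529 and 1510, 3.40-fold (3.08 to 3.76), Ifi211 151 and 440, 3.47-fold (2.88 to 4.21), and Ifi205 53 and 174, 3.91-fold (2.86 to 5.43). Ifi205 passed the count minimum only through SASD 48 h. Oas1a, which makes the 2-5A messenger that activates RNase L, had 259 and 598 counts, 2.75-fold (2.38 to 3.20). Parp12 was 2.92-fold higher (2.53 to 3.37), Ifi27l2a 2.64-fold (2.40 to 2.92) and Slfn5 2.56-fold (2.45 to 2.68). Reads of close copies may be split or lost within the Ifi200, Oas1, Ifit3 and Slfn families, so single members are uncertain.

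The ratios were uneven inside the list. The following genes were picked out after their values were seen. Irf7, the factor that amplifies interferon production, had 1235 and 2086 counts, 2.01-fold (1.88 to 2.16). The antiviral genes Ifit3 and Isg15 stood at 1.95-fold (1.74 to 2.19) and 1.44-fold (1.21 to 1.71). Rsad2, viperin, was lower, with 3922 and 2635 counts, 0.801 (0.762 to 0.842). The exonuclease gene Isg20 was the lowest of the list, with 1323 and 556 counts, 0.501 (0.453 to 0.553). Neighbours of the higher Ifi200 genes were nearly level: Ifi203 had 12098 and 11854 counts, 1.17-fold (1.14 to 1.20), and Mndal 9418 and 8574, 1.08-fold (1.05 to 1.12). Ifnb1 had no count in either library, which allows up to 3 counts each, and Ifng had 72 and 62.

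**Figure D4:**
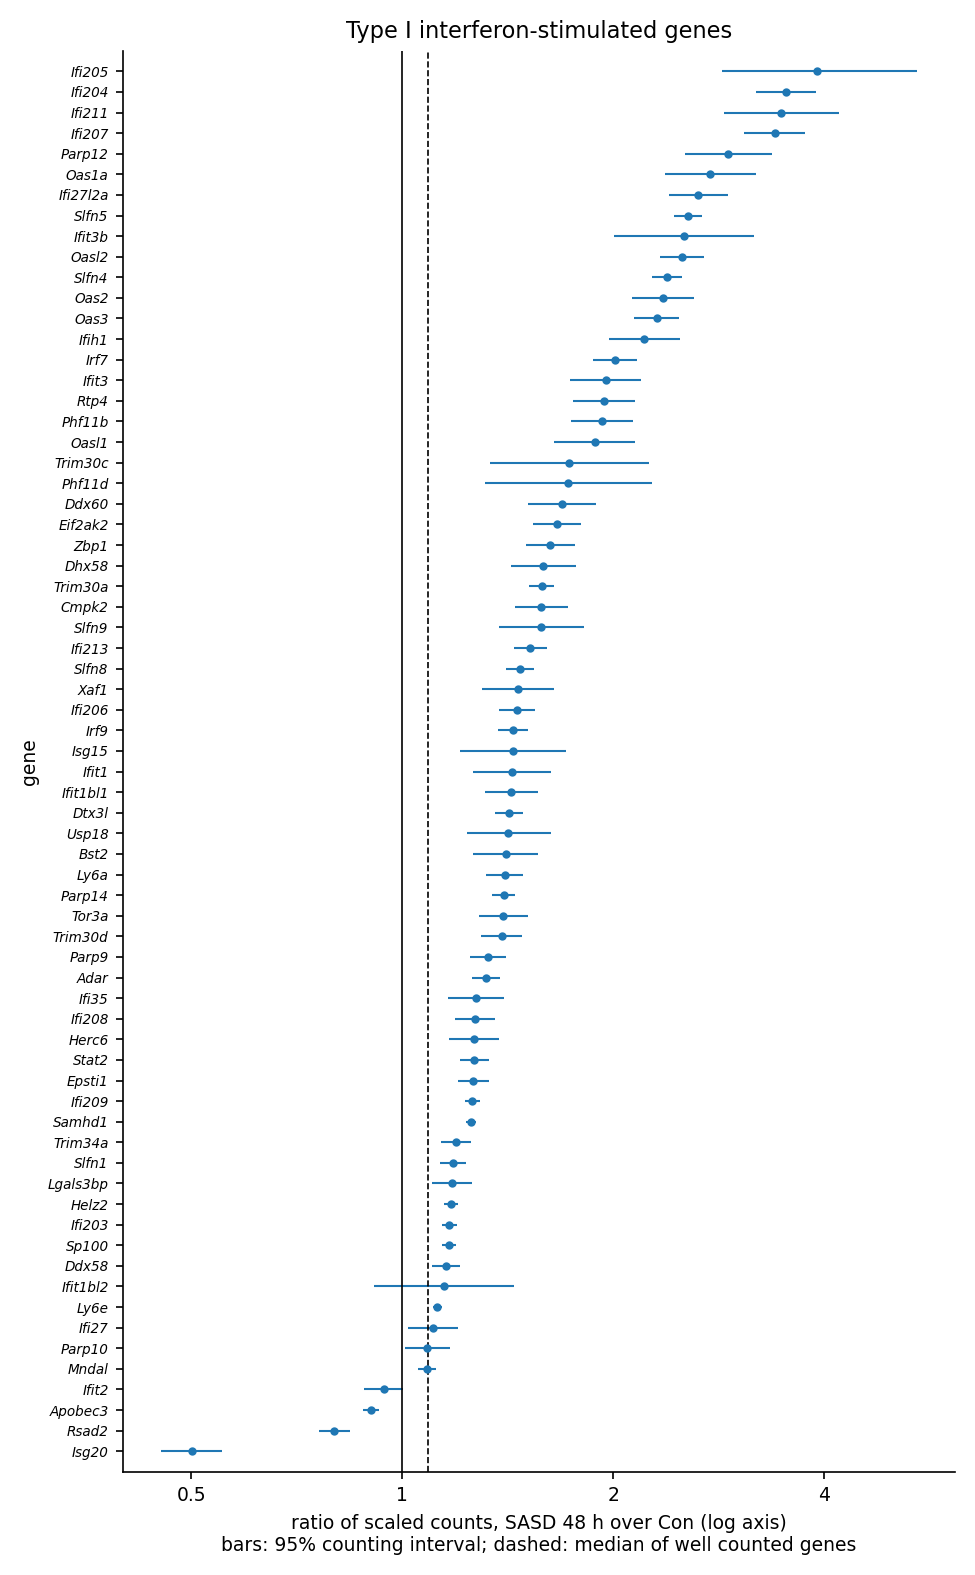
Ratio of SASD 48 h over Con (horizontal, log axis) with 95% counting intervals for the well counted type I interferon-stimulated genes, with 1 of the 69 not shown. The dashed line is the median of all well counted genes; most members lie above it, Ifi205 (3.91) is at the top, and Rsad2 (0.801) and Isg20 (0.501) are at the bottom.

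The interferon-stimulated response element (ISRE), the motif of the type I interferon response, was searched here as GAAANNGAAA on both strands, overlapping matches included. It occurred in 37 of 72 promoters found for the list (51.4%; 58 of 73 genes had a promoter in the RefSeq table, GRCm38.p6) and in 3.44% of all 32851 promoters. Promoters of the 2-fold higher genes held it in 8 of 12 cases (66.7%) and those of the well counted genes under 2-fold in 27 of 56 (48.2%). Some genes have several promoters. Counted by gene, a match was found for 8 of 12 and 23 of 42, a smaller gap on few genes. The stretches that follow set Ifi207, Ifi211 and Oas1a, which were over 2-fold higher, beside Ifi203, Mndal and Rsad2, which were not; capitals mark the ISRE, and a match on the opposite strand appears as TTTCNNTTTC. They lie at chr1:173741820-173741899 (Ifi207), chr1:173913057-173913136 (Ifi211), chr5:120907526-120907615 (Oas1a), chr1:173942503-173942582 (Ifi203), chr1:173880198-173880277 (Mndal) and chr12:26456533-26456612 (Rsad2), all on the minus strand.
Ifi207: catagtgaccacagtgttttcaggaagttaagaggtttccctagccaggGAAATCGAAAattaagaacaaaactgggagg
Ifi211: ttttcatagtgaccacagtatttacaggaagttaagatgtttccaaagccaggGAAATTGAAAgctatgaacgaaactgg
Oas1a: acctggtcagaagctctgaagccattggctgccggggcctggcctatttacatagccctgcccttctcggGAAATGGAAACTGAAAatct
Ifi203: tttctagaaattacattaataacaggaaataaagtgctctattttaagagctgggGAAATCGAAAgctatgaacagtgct
Mndal: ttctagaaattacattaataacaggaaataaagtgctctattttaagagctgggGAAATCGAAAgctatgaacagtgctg
Rsad2: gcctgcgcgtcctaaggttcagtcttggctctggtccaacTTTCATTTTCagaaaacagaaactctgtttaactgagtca
The match began 41 bases before the start in Ifi207, 37 in Ifi211, 35 in Ifi203 and 36 in Mndal. Ifi207, at 3.40-fold, and Mndal, at 1.08-fold, thus carried the same matched letters at nearly the same distance. Oas1a had 2 overlapping matches, beginning 20 and 14 bases before the start, and Rsad2 had 1 at 120.

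Other interferon genes moved less. Among 20 well counted members of 28 interferon-inducible GTPases and type II interferon genes, none reached 2-fold in either direction and 1 reached 1.5-fold higher, at a median of 0.18. Irgm2 was 1.5-fold higher (1.40 to 1.61), Gbp2 1.41-fold (1.29 to 1.55), Irgm1 1.38-fold (1.29 to 1.47) and Irf1 1.32-fold (1.27 to 1.38), while Igtp stood at 0.820 (0.775 to 0.868). ISRE matches were no rarer in this list, at 12 of 19 promoters, and GAS matches occurred in 8 of 19. The interferon receptor and kinase list had 16 well counted members and none at 2-fold; both chains of the IFN-gamma receptor, Ifngr2 (1.5-fold, 1.42 to 1.59) and Ifngr1 (1.46-fold, 1.41 to 1.51), were its farthest from 0. None of 18 MHC class I presentation genes and none of 11 MHC class II genes reached 1.5-fold; H2-Aa, a class II chain, had 41949 and 40952 counts, 1.16-fold (1.15 to 1.18).

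The Ifitm genes, membrane proteins that block virus entry, were an exception. Ifitm3 had 2084 and 4900 counts, 2.80-fold (2.66 to 2.95), and Ifitm6 517 and 1037, 2.39-fold (2.15 to 2.66). Ifitm2 was 1.85-fold higher (1.74 to 1.98) and Ifitm1 1.30-fold (1.18 to 1.44), while Ifitm10 stood at 0.900 (0.736 to 1.10). Over the same Con library, SD 48 h gave 3.38-fold (3.20 to 3.58) for Ifitm3 and 17.3-fold (16.0 to 18.7) for Ifitm1.

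Markers of most other leukocytes stayed near the median of all genes. No member of the B cell list (18 well counted, median 0.04) or the NK and cytotoxic list (17, median 0.10) reached 1.5-fold in either direction. In the T cell list (20, median -0.03) 2 were at least 1.5-fold lower: Il7r, the interleukin-7 receptor of naive and memory T cells, with 10207 and 5005 counts, 0.584 (0.565 to 0.605), and Foxp3, the factor of regulatory T cells, at 0.633 (0.481 to 0.829). Cd3e, picked out after its value was seen, was level at 1.01 (0.964 to 1.07). Among 20 well counted mature neutrophil genes none reached 2-fold; Cd177 was 1.92-fold higher (1.76 to 2.09) and Trem3 1.68-fold (1.46 to 1.93). Only 5 of 16 neutrophil granule genes were well counted, at a median of 0.08, with 3 of them above 0. Chil1 was higher, at a log2 ratio of 0.44, and Ngp was at 0.846 (0.705 to 1.01). In the dendritic and plasma cell list (14 well counted, median 0.10) none was at least 2-fold higher and 2 were 2-fold lower, with 2 at least 1.5-fold higher and 3 lower. Xcr1, which marks cross-presenting dendritic cells, stood at 0.472 (0.355 to 0.621) and Jchain, the joining chain of secreted antibody, at 0.448 (0.368 to 0.542).

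The lower genes included erythroid and connective tissue genes, though only 15 of the 143 belonged to any of the 29 fixed lists. Of 14 well counted erythroid genes 10 were at least 2-fold lower and 13 at least 1.5-fold lower, at a median of -1.29. The anion exchanger Slc4a1 had 2094 and 571, 0.325 (0.296 to 0.357). Of 16 platelet genes 15 were at least 1.5-fold lower, at a median of -0.82; the lectin receptor Clec1b was at 0.464 (0.445 to 0.483) and Nrgn at 0.518 (0.507 to 0.528). The summed CPM of the erythroid list went from 8205 to 3373 and that of the platelet list from 6871 to 4179. The 15 lowest genes by their interval included the collagens Col3a1 (324 and 55 counts, 0.202, 0.149 to 0.270), Col1a2 (0.232, 0.186 to 0.287), Col6a1 and Col6a2, and the matrix-associated genes Ltbp4, Fstl1, Mrc2 and Ccn3. Ston1, an endocytic adaptor, had 192 and 18 counts, 0.112 (0.0648 to 0.181), and the guidance ligand Slit2 200 and 28, 0.167 (0.108 to 0.249). Trim10, which takes part in red cell maturation, was at 0.231 (0.186 to 0.285). Slit2 was 4.42 times the olfactory background per kb in Con and 1.31 times in SASD 48 h, and the log2 ratio of Slit2 went from -2.51 to -3.96 when that background was subtracted. How far red cells, platelets or tissue RNA carried over into either library bear on the leukocyte ratios was not tested.

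After Fcgr1, the highest genes by their interval that belonged to no monocyte or interferon list were Sdc3, a heparan sulfate proteoglycan (383 and 1525 counts, 4.75-fold, 4.24 to 5.32), Tppp3, a microtubule-binding protein (176 and 697, 4.72-fold, 4.0 to 5.60), Mcub, a subunit of the mitochondrial calcium channel (98 and 352, 4.28-fold, 3.41 to 5.41), the receptor gene Gpr35 (438 and 1309, 3.56-fold, 3.19 to 3.98) and Arhgef37 (676 and 1984, 3.5-fold, 3.20 to 3.82).

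Genes that respond to glucocorticoids, the hormones of the stress axis, leaned lower: of 14 well counted, 1 was at least 2-fold higher and 1 lower, 4 were 1.5-fold lower, and the median was -0.13. Ddit4, an inhibitor of mTORC1, had 2537 and 1048 counts, 0.492 (0.458 to 0.529), and Tgm2, transglutaminase 2, had 236 and 413, 2.09-fold (1.77 to 2.46). Picked out after their values were seen, Tsc22d3 (GILZ) had 20718 and 10506 counts, 0.604 (0.590 to 0.619), and Fkbp5 2469 and 1148, 0.554 (0.516 to 0.595). Over the same Con library, SD 48 h gave 1.58 (1.55 to 1.61) for Tsc22d3 and 1.67 (1.57 to 1.78) for Fkbp5, so the 2 procedures lay on opposite sides of Con. Core clock genes showed little: of 14, none reached 2-fold and 1 reached 1.5-fold, the repressor Nfil3 at 1.98-fold (1.71 to 2.31), with a median of -0.06.

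Of 19 immediate early genes 2 reached 2-fold, Fos (620 and 1141 counts, 2.19-fold, 1.99 to 2.42) and Nr4a1. Of 24 NF-kB and cytokine genes 1 did, the myeloid chemokine Ccl9 (960 and 2304 counts, 2.86-fold, 2.65 to 3.09); Cd14, the lipopolysaccharide co-receptor, had 97 and 161 counts, 1.98-fold (1.53 to 2.57). Tnf, picked out after its value was seen, was at 0.824 (0.649 to 1.04). In the complement list C3, the central component, had 2364 and 5727 counts, 2.89-fold (2.75 to 3.03). In the lipid uptake and efflux list 4 of 17 were at least 2-fold higher, at a median of 0.55, among them the scavenger receptor Msr1 (273 and 640, 2.79-fold, 2.42 to 3.23), Lrp1 (2.7-fold, 2.58 to 2.82) and Scarb1 (2.50-fold, 2.29 to 2.74). Of 11 well counted proliferation genes 1 was 2-fold lower and none higher, at a median of -0.03. That was Ube2c, a mitotic gene, at 0.429 (0.320 to 0.571). Ube2c was at 5.68 CPM in Con, 2.36 in SASD 48 h and 5.41 in SD 48 h, against 19.25 to 78.96 in the other 7 libraries, which also had more haemoglobin RNA; the part of red cell RNA in its ratio was not tested.

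Because each ratio rests on a single Con library, the level of that library among all 10 was examined, on CPM scaled by TMM over the 10. Con was the lowest of the 10 for 64 of the 199 2-fold higher genes (32.2%), against 16.5% of all well counted genes. SASD 48 h was the highest of the 10 for 69 of them (34.7%), against 16.6%. Those genes were called on the gap between Con and SASD 48 h, so excess shares in both follow from the call. They tell nothing more about either library. In the type I interferon list Con was lowest for 37 of 69 genes (53.6%) and SASD 48 h highest for 14 (20.3%). In the classical monocyte list Con was lowest for 6 of 16 genes (37.5%) and SASD 48 h highest for 2 (12.5%). The shared monocyte and macrophage list had 12 and 5 of 33, and the Fc gamma receptor list 3 and 2 of 7. For the nonclassical list the order was the other way round, with Con lowest for 4 of 24 and SASD 48 h highest for 10. Low levels in Con and high levels in SASD 48 h thus occurred in shares that differed between lists.

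Fcgr1 was at 3.39 CPM in Con, 22 in SASD 48 h and 20.3 in SD 48 h, and ran from 3.58 to 26.9 in the other 7 libraries. Con was its lowest library and SD 24 h its highest. Ccr2 was at 138 CPM in Con, 419 in SASD 48 h and 509 in SD 48 h, with 73.4 to 524 elsewhere. Cx3cr1 was at 58.5, 133 and 101, with 44.3 to 129 elsewhere, so that SASD 48 h was its highest library. Ifi204 was at 16.8, 57.3 and 38.6, with 21.2 to 65.2 elsewhere.

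Some interferon genes separated the haemoglobin-poor libraries (Con, SASD 48 h and SD 48 h) from the other 7. Rsad2 was at 120, 92.8 and 91.9 CPM in these 3 and from 653 to 3369 elsewhere, and Isg20 at 40.4, 19.6 and 32.4 against 173 to 603. Hbb-bs, a haemoglobin chain, followed the same division, with 3482, 1380 and 1682 CPM against 17370 to 35750. The low ratios of Rsad2 and Isg20 thus compare libraries that both lie far below the other times for these genes, and the part of red cell RNA in that was not tested. Pf4, platelet factor 4, was at 321 CPM in Con and 166 in SASD 48 h, the lowest of the 10, and at 322 to 682 in the other 7. Tsc22d3 was at 633 CPM in Con, 370 in SASD 48 h, again the lowest of the 10, and 949 in SD 48 h. These genes were picked out after their values were seen.

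**Figure D5:**
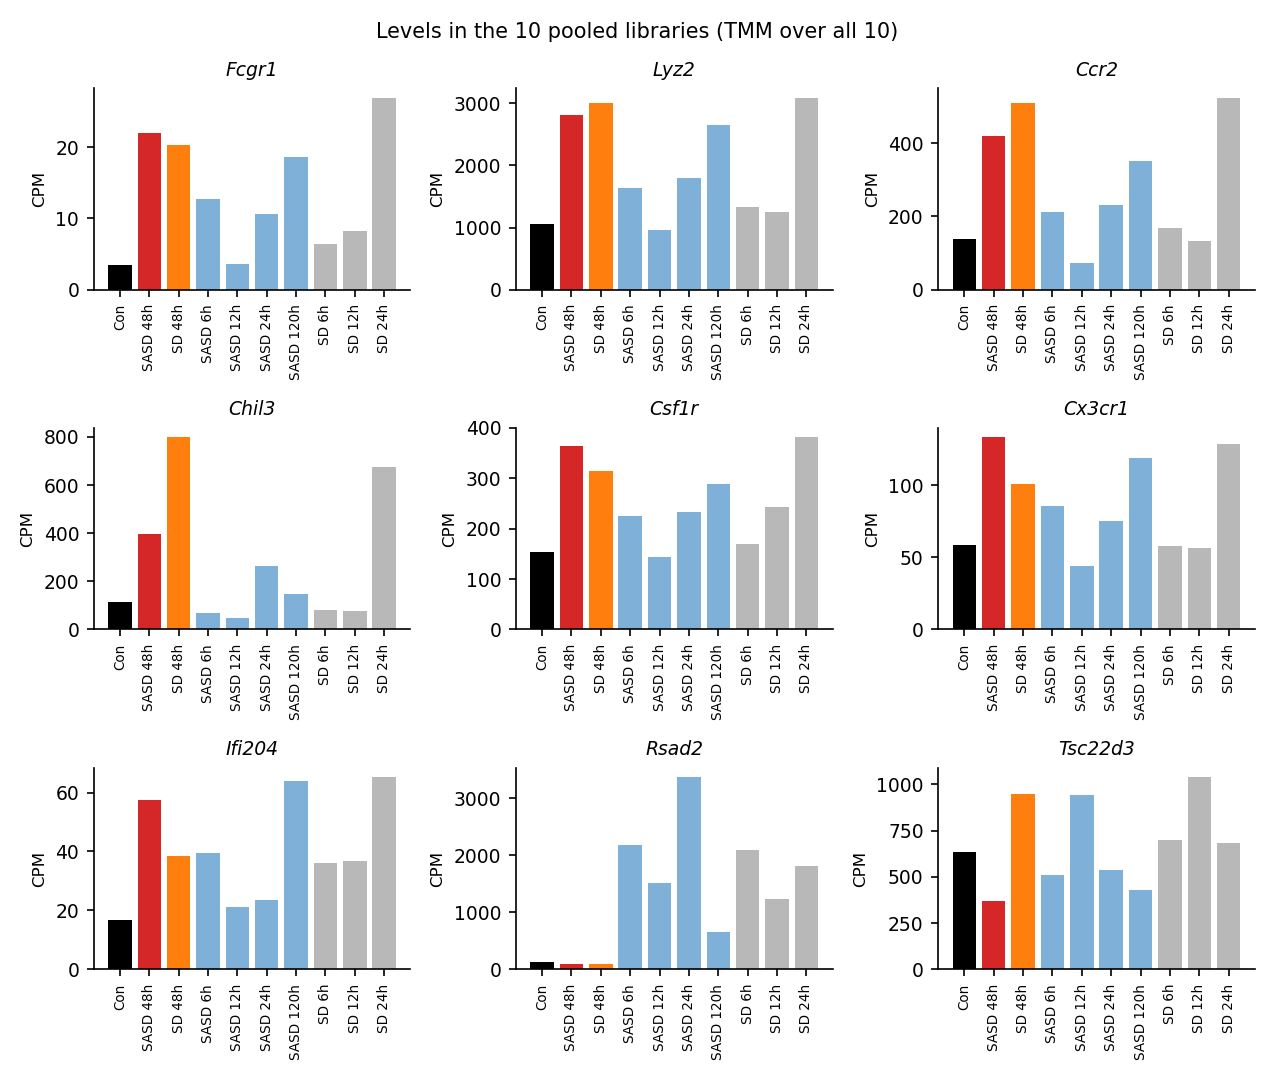
CPM (vertical, from 0, TMM over all 10 libraries) of 9 genes in each of the 10 pooled libraries, with Con in black, SASD 48 h in red, SD 48 h in orange, other SASD times in blue and other SD times in grey. Con is the lowest library for Fcgr1 and Ifi204, and Rsad2 is at 120 CPM in Con and lower in both 48 h libraries, against 653 or more in the other 7.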

How the data were processed

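RNA of blood leukocytes was sequenced in 10 pooled libraries, of which Con and SASD 48 h, 1 library each, were compared. Per the submitters' processing notes, the tools were Trimmomatic 0.39, STAR 2.7.9a and featureCounts 2.0.3, with mm10. Pairs of reads on exons were summed per gene by the authors on a 10x mm10 annotation, per the file headers, with no strand option and no option to keep multi-mapped or ambiguous pairs. The deposited values are raw counts for 32285 genes, and all 10 columns matched a label. Overlapping and antisense genes, and near-identical copies (Hba-a1 and Hba-a2, the Ifi200, Oas1, Ifit3, Slfn, Ly6c and Ifitm families), are uncertain. Positions, exon lengths and gene types came from GENCODE M21 (GRCm38), with a symbol for 32235 genes.

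TMM factors came from edgeR 4.0.16 (R 4.3.3). Ratios use scaled counts with exact conditional binomial (Clopper-Pearson) 95% intervals (scipy 1.17.1); log2 ratios for lists, ranks and fold calls use a prior count of 2. Intervals were tested on simulated data. DESeq2 1.42.0 gave size factors for an alternative. Other alternatives were total counts, upper quartile and 10-library TMM scaling, protein-coding genes only, other prior counts and count minimums, and subtraction of the olfactory background. Of 607 entries in 29 lists, 604 matched. The members and lists were chosen with earlier results of these data known. Genes named are the 15 with the highest lower bound and the 15 with the lowest upper bound, the 8 farthest from 0 in each monocyte, macrophage, Fc and interferon list (2 in each other list), and every Fc gamma receptor; others are marked as picked out after their values were seen. Some genes that the rule names are not reported here.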

Additional observations from a re-analysis of the deposited data

How the results depend on the processing

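The balance of 2-fold higher to lower genes (199 to 143) turned over with total counts (147 to 199), upper quartile scaling (130 to 214), a mean count of at least 25 (247 to 1006) and at least 1 count in the pair (901 to 5432). The medians of the classical and nonclassical monocyte, Fc gamma receptor and type I interferon lists kept their sign in the alternatives run, and 5 of 125 named genes, with log2 ratios of at most 0.10 in size, did not. Sign against 0 is a weak check, because the scalings also move the median of all genes. The classical, nonclassical and Fc gamma receptor lists gain no member at a lower count minimum, so their medians could not change there. The number of 2-fold higher genes (199) was 130 with upper quartile scaling, 61 at a mean count of at least 1000, 901 with at least 1 count in the pair and 118 where the whole counting interval had to lie past 2-fold. The number of 2-fold lower genes (143) was 34, 5432 and 77 under the last 3 of these, and 1006 at a mean count of at least 25; these count alternatives change the number of genes examined, and low-count genes lie nearest the olfactory background. Upper quartile scaling gave medians of 0.97 for classical monocyte, 0.10 for Fc gamma receptor and 0.38 for type I interferon-stimulated genes, and total counts gave 0.14 for Fc gamma receptors, by construction a shift of all genes alike. DESeq2 size factors gave 226 higher and 119 lower genes, and subtraction of the olfactory background 217 and 144. Of 72 named genes past 2-fold, 8 fell inside it in at least 1 alternative: Ace, Axl, Ddit4, Ear2, Fos, Nr4a1, Tgfbi and Tgm2. No paired analysis was possible because each group has 1 library, and no replicate could be left out.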

Other observations

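Genes of sterol synthesis and uptake, a list put together after the values were seen, leaned higher in SASD 48 h: of 22, all well counted, 2 were at least 2-fold higher and none lower, 10 were 1.5-fold higher and 1 lower, and the median log2 ratio was 0.53 against 0.12 for all genes. Idi1, an isomerase of the isoprenoid chain, had 67 and 167 counts, 2.97-fold (95% counting interval 2.23 to 4.01). Cyp51 and Sqle, enzymes late in the pathway, were 1.83-fold (1.64 to 2.05) and 1.82-fold (1.55 to 2.14) higher, and the regulator Srebf2 1.55-fold (1.5 to 1.61). In SD 48 h over the same Con library the list had a median of 0.19.

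Sensors of microbial products outside the lists, with no fixed list behind them and picked out after their values were seen, ran from level to 2.50-fold higher. Tlr8, a neighbour of Tlr7 on the X chromosome, had 401 and 832 counts, 2.47-fold (2.19 to 2.79). Nod2, a sensor of bacterial cell wall, had 158 and 290, 2.19-fold (1.80 to 2.67), and Mefv, pyrin, 352 and 739, 2.50-fold (2.20 to 2.85). Naip2 and Naip6, which detect bacterial proteins for the NLRC4 inflammasome and have close copies, were 2.22-fold (2.04 to 2.41) and 2.20-fold (1.97 to 2.45) higher, while Nlrc4 was level at 1.01 (0.928 to 1.11). Tlr9, a DNA sensor also of B cells, stood at 1.18 (1.11 to 1.25) and Aim2 at 1.07 (1.01 to 1.14).

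Collagen and matrix genes, a list also put together after the values were seen, were all at least 2-fold lower in their 13 well counted members (17 listed), at a median of -1.79, and their summed CPM went from 188 to 55.3. A member could pass the count minimum on Con alone. With members also chosen on these values, the number lower is a description and not a test. In SD 48 h over the same Con library the median was -1.56. Col1a2 was at 16.1 CPM in Con, 3.63 in SASD 48 h and 13.5 in SASD 6 h, and at 2.35 to 4.01 in the other 7 libraries.

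The eosinophil and basophil list had 5 of 16 members well counted, at a median of 0.12, and its members went both ways. Of the 5, 4 had a log2 ratio above 0, and 2 were at least 1.5-fold higher, Ms4a2 and Siglecf (log2 ratio 0.65). The following genes were picked out after their values were seen, and of them only Gata2 was well counted. Fcer1a, the alpha chain of the IgE receptor, had 12 and 33 counts, 3.28-fold (1.65 to 6.97), and Cd200r3 61 and 123, 2.40-fold (1.75 to 3.32). Mcpt8, a basophil protease, had 23 and 26, 1.35-fold (0.739 to 2.47), Cpa3 57 and 45, 0.941 (0.622 to 1.42), Prss34 38 and 12, 0.376 (0.179 to 0.736), and the transcription factor gene Gata2 714 and 403, 0.673 (0.594 to 0.761).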
